A study of Mus musculus with 16 samples.

Results

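The posterior genes of the HoxA cluster, *Hoxa9*, *Hoxa10*, *Hoxa11* and *Hoxa13*, and the neighbouring *Evx1* were examined in nuclear RNA-seq of mouse embryonic stem cells (ESCs). The 5 genes were taken by name from 19338 genes of the gene set of the study, with the entry of the highest mean kept for each symbol. All 16 libraries come from cells that lack *Ring1* (*Ring1*-/-) and carry a floxed *Rnf2* (*Rnf2* fl/fl), in 4 groups of 4 biological replicates each. PRC1/2-null and PRC2-null cells are *Ring1*-/-;*Rnf2* fl/fl;*Eed*-/- cells of 1 CRISPR clone, with and without tamoxifen. PRC1-null and wild-type cells are the parental *Ring1*-/-;*Rnf2* fl/fl cells, again with and without tamoxifen, so that the wild-type cells lack *Ring1* as well. Treatment was with 800 nM 4-hydroxytamoxifen for 72 h. The level of a gene is its mean normalized count over the 16 libraries, which is the authors' mean, scaled for sequencing depth between libraries. It pools the 4 groups, and neither the separate groups nor the spread between replicates were analysed here. The levels below therefore describe the genes against each other and against other genes, and say nothing of how any gene differed between PRC1/2-null, PRC2-null or PRC1-null cells and wild-type cells.

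Hox genes encode homeodomain transcription factors that give cells along the body axis their regional identity, and their order on the chromosome matches the order in which they are switched on in the embryo. The genes at the posterior end of a cluster come on last, in the caudal trunk, the limb buds and the urogenital tract. In ESCs they are kept at a low level as classical targets of the Polycomb complexes. PRC1 ubiquitylates histone H2A through RING1 or RNF2, and PRC2, with EED as a core subunit, methylates histone H3. Promoters rich in CpG dinucleotides are known sites of Polycomb recruitment in vertebrates.

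The members lie on chromosome 6 within 95.3 kb of the mm10 (GRCm38) assembly. *Hoxa9* (NM_001277238) spans 52223100 to 52227370 and *Hoxa10* (NM_001122950) 52231922 to 52240854. *Hoxa11* (NM_010450) spans 52242106 to 52245810 and *Hoxa13* (NM_008264) 52258853 to 52260880, and all 4 are on the minus strand. *Evx1* (NM_007966) spans 52313498 to 52318378 on the plus strand, so that it is read in the opposite direction. The gap between neighbours was 4.55 kb from *Hoxa9* to *Hoxa10*, 1.25 kb from *Hoxa10* to *Hoxa11* and 13.0 kb from *Hoxa11* to *Hoxa13*. Another 52.6 kb separate *Hoxa13* from *Evx1*.

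Promoter sequences of RefSeq (GRCm38.p6), each reaching from 250 bases before a transcription start to 50 bases after it, were found for 5 of the 5 members, with 6 starts in all. Of these, 4 are printed here, from 5′ to 3′ on the strand of the gene and with CpG dinucleotides in capitals. *Hoxa13* and *Hoxa9* are shown as the members with the most and the fewest CpGs, and the starts of *Hoxa10* because the gene set counts each of them as an entry of its own.
Hoxa13 (NM_008264, chr6:52260831-52261130, minus strand): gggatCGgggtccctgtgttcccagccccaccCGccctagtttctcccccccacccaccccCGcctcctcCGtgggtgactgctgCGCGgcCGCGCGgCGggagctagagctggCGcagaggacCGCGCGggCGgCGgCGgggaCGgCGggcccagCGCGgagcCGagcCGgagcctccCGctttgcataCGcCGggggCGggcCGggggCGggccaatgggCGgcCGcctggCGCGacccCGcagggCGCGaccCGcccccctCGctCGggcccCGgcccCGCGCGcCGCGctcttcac
Hoxa9 (NM_001277238, chr6:52227321-52227620, minus strand): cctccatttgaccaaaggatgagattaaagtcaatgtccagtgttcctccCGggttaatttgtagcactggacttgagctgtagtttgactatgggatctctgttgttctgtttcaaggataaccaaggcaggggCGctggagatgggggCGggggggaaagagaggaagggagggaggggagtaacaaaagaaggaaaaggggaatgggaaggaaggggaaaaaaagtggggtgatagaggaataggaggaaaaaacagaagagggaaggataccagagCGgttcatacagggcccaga
Hoxa10 distal start (NM_001122950, chr6:52240805-52241104, minus strand): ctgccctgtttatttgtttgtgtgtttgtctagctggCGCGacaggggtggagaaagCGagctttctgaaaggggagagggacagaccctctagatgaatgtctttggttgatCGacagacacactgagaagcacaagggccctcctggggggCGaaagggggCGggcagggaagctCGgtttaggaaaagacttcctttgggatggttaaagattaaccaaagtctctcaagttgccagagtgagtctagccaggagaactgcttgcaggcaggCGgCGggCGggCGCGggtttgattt
Hoxa10 proximal start (NM_008263, chr6:52234890-52235189, minus strand): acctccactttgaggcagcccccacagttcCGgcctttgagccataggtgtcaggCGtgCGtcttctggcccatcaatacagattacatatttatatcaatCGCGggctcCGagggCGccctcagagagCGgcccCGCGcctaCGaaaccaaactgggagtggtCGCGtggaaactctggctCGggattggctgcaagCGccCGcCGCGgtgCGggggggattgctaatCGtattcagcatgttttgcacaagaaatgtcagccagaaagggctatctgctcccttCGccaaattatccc
The *Hoxa13* promoter holds 45 CpGs in its 300 bases and has a G and C content of 81.0%, and 98.1% of the 32851 promoters of the same length have fewer CpGs. The *Hoxa9* start holds 4, which is below the median of 7 over all promoters. The other starts lie between these, with 12 CpGs at the distal and 21 at the proximal start of *Hoxa10*, 15 at *Hoxa11* and 12 at *Evx1*. The letters of core promoter motifs were searched on both strands, at any place in the window. TATAAA was found at 1 of the 6 starts, on the strand opposite the gene at the proximal start of *Hoxa10*, against 13.6% of all promoters. CCAAT was found at 2 starts, those of *Hoxa13* and proximal *Hoxa10* (37.4% of all promoters). GGGCGG was found at 3, those of *Hoxa9*, distal *Hoxa10* and *Hoxa13* (35.7%).

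All 5 members were detected at a low level, between 11.2 and 83.7 mean normalized counts, with *Hoxa10* at the top and *Hoxa13* at the bottom. The median of all genes was 192 and that of the members 24.1. From the size of the smallest steps in the deposited means, 1 read adds between 0.03655 and 0.08815 to the mean depending on the library, which gives the number of reads behind each level and an upper limit to its counting error. The errors quoted here are this upper limit, as 1 standard error. They cover counting alone and not the spread between cultures.

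*Hoxa10*, a gene of the caudal axis and of the uterus, stood at 83.7 ± 2.72 mean normalized counts, from between 950 and 2289 reads. It was higher than 40.6% of all genes. *Hoxa9*, which acts in the caudal trunk and in blood progenitors, stood at 24.9 ± 1.48 (283 to 681 reads), and *Hoxa11*, a gene of the forelimb zeugopod, kidney and uterus, at 24.1 ± 1.46 (274 to 659 reads). *Hoxa9* and *Hoxa11* differed by 0.79, less than the counting error of their difference of 2.08. *Evx1*, an even-skipped homologue active in the primitive streak and in spinal interneurons, stood at 16.3 ± 1.20 from 185 to 445 reads. *Hoxa13*, required for the digits and the genital tract, had the lowest level at 11.2 ± 0.99, from 128 to 306 reads, and was higher than 25.8% of all genes. The step from *Hoxa11* to *Evx1* was 7.82 with a counting error of 1.89. That from *Evx1* to *Hoxa13* was 5.07 with 1.56, so that both steps exceeded 2 counting errors. These counts are not corrected for transcript length, and per kb of transcript *Hoxa13* at 8.57 stood above *Evx1* at 5.66. No test of these differences was made, as no spread over samples enters the pooled mean.

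**Figure D1:**
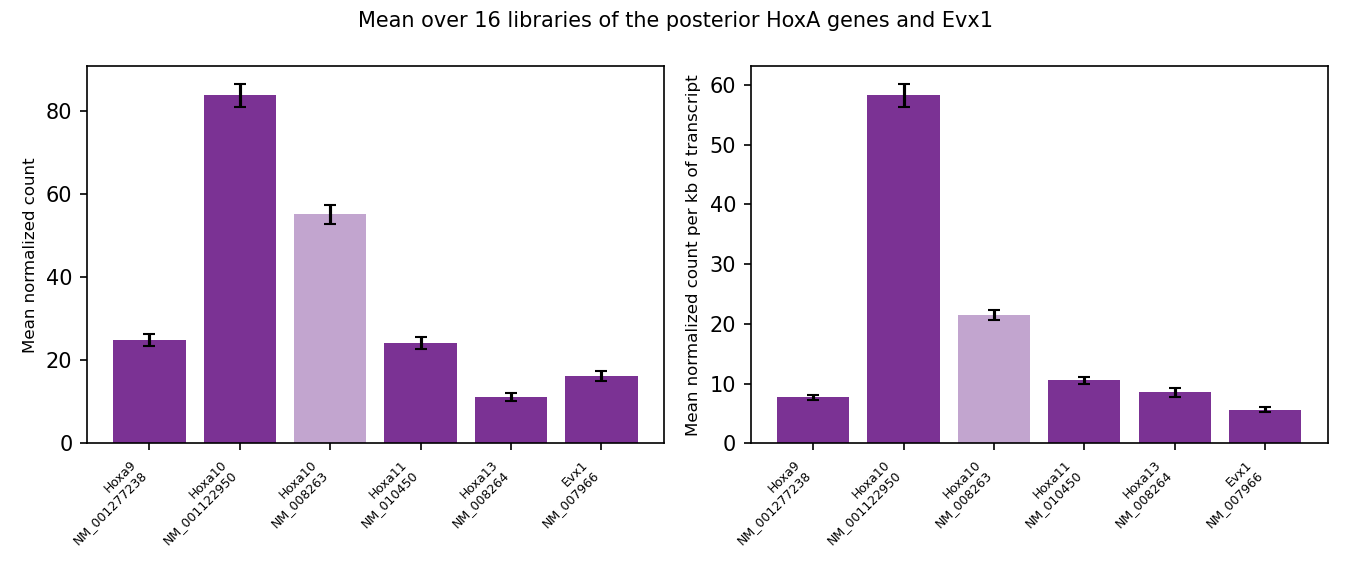
Level of each entry as mean normalized count over 16 libraries (left) and per kb of spliced transcript (right), with the upper limit of the counting standard error as error bars. The dark bars are the 5 members and the pale bar is the second entry of Hoxa10 (NM_008263), which is lower than the one kept on both axes, while Hoxa9, Hoxa11, Hoxa13 and Evx1 all stay below 25 mean normalized counts.

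Per kb of spliced transcript, which allows different genes to be compared, *Hoxa10* reached 58.3 ± 1.89 mean normalized counts per kb. The 4 other members lay lower, between 5.66 and 10.5 mean normalized counts per kb, a 1.86-fold range. *Hoxa11* was at 10.5 ± 0.64, *Hoxa13* at 8.57 ± 0.76, *Hoxa9* at 7.72 ± 0.46 and *Evx1* at 5.66 ± 0.42 per kb. *Hoxa13*, the lowest member by count, was thus in the middle on this scale, with a transcript of 1309 nt beside 3226 nt for *Hoxa9*. The neighbours *Hoxa11* and *Hoxa13*, and *Hoxa13* and *Hoxa9*, did not differ by more than 2 counting errors per kb, while *Hoxa9* exceeded *Evx1* by 2.06 with an error of 0.62. The ratio of *Hoxa10* to the other members ran from 5.53 against *Hoxa11* to 10.3 against *Evx1* per kb of transcript. It depends on the length used. Over the genomic span with introns, a scale that applies if intronic reads were counted, *Hoxa10* was at 9.37 and *Hoxa11* at 6.51 mean normalized counts per kb, a ratio of 1.44. The sources used here do not say whether intronic reads were counted.

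*Hoxa10* is the only member with more than 1 entry, and its level rests on which entry is taken. The entry kept (NM_001122950) starts at the distal promoter and spans 8933 bp, whereas the other (NM_008263) starts at the proximal promoter and spans 3743 bp. The second entry stood at 55.0 ± 2.20 mean normalized counts, or 21.5 ± 0.86 per kb of transcript, still above each of the other members on both scales. Per kb of genomic span the order of the entries turned round, with 9.37 for the entry kept and 14.7 for the other. The entries overlap over 3018 bp of genome and share 859 bp of exon, out of the 1436 nt of the transcript kept. Reads in the shared part cannot be assigned to a start, and how the authors' counting divided them is not given in the sources used here.

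A pair of members also overlap an antisense noncoding RNA. *Hoxa11* shares 568 bp, all of it exon on both strands, with *Hoxa11os*, which was at 30.3 ± 1.63 mean normalized counts, or 16.5 per kb of transcript against 10.5 for *Hoxa11* itself. *Evx1* shares 1335 bp of genome, of which 73 bp are exon of both, with *Evx1os*, at 10.7 ± 0.97 mean normalized counts and 3.69 per kb against 5.66 for *Evx1*. Per kb of transcript the antisense RNA was the higher of the pair at *Hoxa11* and the lower at *Evx1*. Per kb of genomic span *Hoxa11os* at 6.69 and *Hoxa11* at 6.51 were nearly equal. *Hottip*, a noncoding RNA beside *Hoxa13* with which no member entry overlaps, was at 1.39 mean normalized counts. The libraries were made with a strand-marking kit, but whether counting used the strand is not given in the sources used here, so the levels of *Hoxa11* and *Evx1* carry this uncertainty.

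Along the cluster the levels showed no even gradient towards the posterior end. The 6 other HoxA genes reported here ranged from 2.87 (*Hoxa2*) to 37.0 (*Hoxa3*) mean normalized counts per kb of transcript, with a median of 7.52, beside 8.57 for the members. *Hoxa10* stood above each of these 6 genes per kb of transcript by the entry kept, but its other entry at 21.5 was below *Hoxa3*. *Hoxa9*, *Hoxa11* and *Hoxa13* lay in the same range as *Hoxa5*, *Hoxa6* and *Hoxa7*, which had 7.15, 7.88 and 11.0. The *Hoxa3* entry spans 44.1 kb and runs over *Hoxa4*, *Hoxa5* and *Hoxa6* on the same strand, so that its reads and theirs may not be separable. Per kb of genomic span *Hoxa3* was at 2.18, close to *Hoxa2* at 2.11 and below *Hoxa4* at 2.70, *Hoxa5* at 4.74 and *Hoxa6* at 2.83. By count, *Hoxa3* with 95.9 and *Hoxa10* with 83.7 were the highest of those reported.

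**Figure D2:**
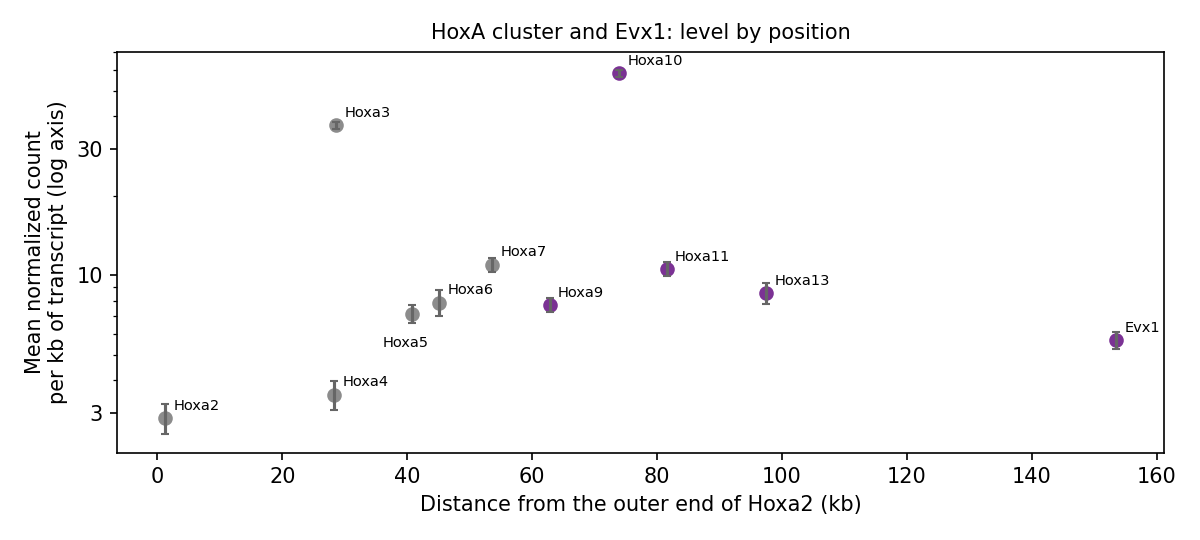
Mean normalized count per kb of spliced transcript (log axis) against the distance of the middle of each gene from the outer end of Hoxa2, with the upper limit of the counting standard error. The members are purple and other HoxA genes grey: on this scale Hoxa10 at 58.3 and Hoxa3 at 37.0 stand above their neighbours, and the level falls from 10.5 at Hoxa11 to 5.66 at Evx1 at the far end. The Hoxa3 entry spans 44.1 kb, so that its middle lies over Hoxa4, and per kb of genomic span it was at 2.18.

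The paralogues of the same number in the other clusters were mostly higher than the members. Their median was 45.4 mean normalized counts over 10 genes, against 24.1 for the members, or 22.2 per kb of transcript against 8.57. The 10 genes leave out *Evx2*, whereas the members include *Evx1*. The pattern differed by number. In group 13, *Hoxa13* at 8.57 per kb was the lowest, below *Hoxb13* at 19.9, *Hoxc13* at 32.0 and *Hoxd13*, a gene of the digits, at 49.6. In group 9, *Hoxa9* at 7.72 was again the lowest, below *Hoxd9* at 18.1, *Hoxc9* at 26.6 and *Hoxb9* at 42.7. In group 10 the order was the other way round, with *Hoxa10* at 58.3 above *Hoxc10* at 24.5 and *Hoxd10* at 8.52. Per kb of transcript this holds against *Hoxc10* for the entry kept only, since the other entry of *Hoxa10* was at 21.5. In group 11, *Hoxa11* at 10.5 was close to *Hoxd11* at 9.86 and above *Hoxc11* at 4.12. *Hoxd11* has 2 entries, of which the one with the higher mean was used. By count *Hoxd11* was at 33.2 and *Hoxa11* at 24.1, whereas per kb of genomic span they were at 4.45 and 6.51. Over genomic span *Hoxa13* and *Hoxa9* were again the lowest of their groups, while *Hoxa10* at 9.37 was close to *Hoxc10* at 9.19. The other entry of *Hoxa10*, at 14.7 over genomic span, was above *Hoxc10*. *Evx1* at 5.66 was higher than its relative beside the HoxD cluster, *Evx2*, at 0.94 per kb. These are levels of pooled libraries, and no test was made of them.

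Among 35 other genes of the Hox clusters, with *Evx2* counted among them, 10 were below the lowest member per kb of transcript. Another 24 were within the range of the members and 1 was above, *Hoxd8* at 102, a gene named after its value was seen. The top of this range is the *Hoxa10* entry kept, at 58.3. The other entry of *Hoxa10*, at 21.5, was below *Hoxd13* at 49.6 and *Hoxb9* at 42.7, among others. Per kb of genomic span the entry kept was at 9.37, below *Hoxd13* at 37.4 and *Hoxb9* at 21.4, among others. A mean of at least 10 was reached by 5 of 5 members and by 25 of the 35, beside 74.9% of all genes. A mean of at least 100 was reached by 0 of 5 members and 2 of the 35, beside 57.6% of all genes.

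**Figure D3:**
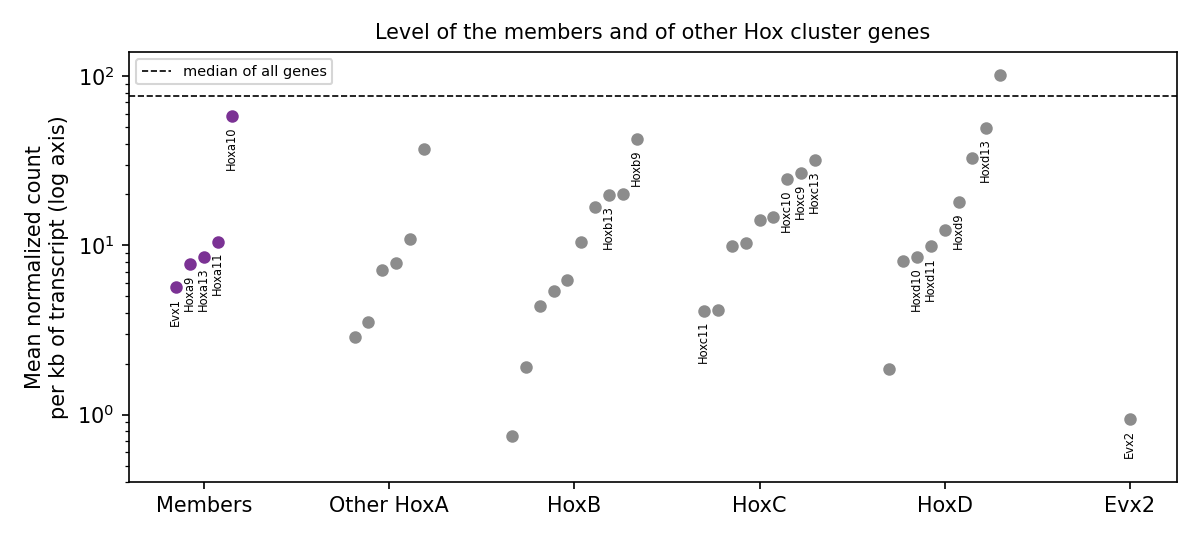
Mean normalized count per kb of spliced transcript (log axis) of the 5 members (purple), of other Hox cluster genes by cluster and of Evx2 (grey), each column ordered from low to high, with paralogues of the members named. The dashed line is the median of all genes at 76.7 per kb, and all the members lie below it.

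As a reference for these levels, the ESC markers *Pou5f1*, *Nanog*, *Sox2* and 7 others on the list had a mean of at least 100 in 10 of 10 cases, with a median of 1981, while 2 of 8 fibroblast and feeder markers did, with a median of 26.5, a range from 0.28 (*Lum*) to 162 (*Pdgfrb*) and a summed level of 416. Of the markers of other cell types, 5 of 7 trophoblast and 7 of 8 primitive endoderm genes also reached 100. Their medians were 361 and 1130 over the pooled groups. The trophoblast list held 8 genes, of which 7 were found. Beside these counts, 57.6% of all genes reached 100. The lowest genes of the trophoblast and primitive endoderm lists were *Elf5* at 32.2 and *Afp* at 3.32. Whether cells of these types were present, or bear on the Hox levels, was not tested. In bulk samples more cells of a type and more RNA per cell cannot be told apart. Of the targeted genes, *Eed* was at 2723, *Rnf2* at 3208 and *Ring1*, deleted in all the cells, at 19.0 mean normalized counts, so that *Ring1* lay between *Evx1* and *Hoxa11*. A pooled mean is no check of the group labels.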

How the data were processed

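Nuclear RNA depleted of rRNA was sequenced as paired-end reads in 16 libraries. Per the study's methods, Bowtie 2 served to filter rRNA fragments, STAR to map what was left to mm10 and SAMtools to drop PCR duplicates. The authors used DESeq2 to compare the groups over a custom gene set. Their versions, and whether counting used exons or strand, are not given in the sources used here. The 3 deposited tables hold 20633 RefSeq entries each. The signal used here is the authors' deposited mean of counts divided by size factors over all libraries, and it was identical in the 3 tables. The 6 other value columns of each table hold the authors' own comparisons of a null group with wild type (fold changes, their errors, statistics and p-values), and they were not used here. No comparison between groups was therefore made. The members and lists were chosen with earlier results of these data known. Named genes were the members, the HoxA cluster, the paralogues of the same number, *Evx2* and the targeted genes, of which 1 gene is not reported here.

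Symbols were found for 20560 entries, 20446 from RefSeq (GRCm38.p6) and 114 from GENCODE M21, and 19338 genes had 1 entry kept. Transcript lengths and coordinates came from GENCODE M21 for 19073 genes (98.6%). The 16 values below 0.1, each shared by at least 5 entries and not a sum of smaller ones, were taken as the weight of 1 read in each library. All 540 entries with means above 0 and under 0.15 were whole sums of these within 1e-09. The size factors so found ran from 0.709 to 1.71, a 2.41-fold range in depth, and could not be assigned to libraries. The counting error is at most the square root of the mean times the largest weight. The step search was tested on simulated data. Python 3.11.15, numpy 2.4.6, pandas 2.3.3 and matplotlib 3.10.9 were used.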

Additional observations from a re-analysis of the deposited data

How the results depend on the processing

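Of 22 recalculations under other settings, 5 stayed within the tolerance and 17 did not. The direction of most was set by the setting itself, so this tally does not measure how robust the levels are. A genomic span is longer than its transcript, which lowers each level per kb. A minimum level takes away only genes below the members, which lowers each position. The tolerance was the 95% counting interval of a level, the positions that the ends of that interval take among all genes, and 1.5 times for a count of genes. Summing both entries of *Hoxa10* gave 138.7 mean normalized counts, with reads of the shared exon possibly counted more than once. The other members have 1 entry each, so that this setting could not move them. Per kb of genomic span in place of spliced transcript, *Hoxa10* stood at 9.37, *Hoxa11* at 6.51, *Hoxa9* at 5.83, *Hoxa13* at 5.53 and *Evx1* at 3.33, so that *Hoxa9* and *Hoxa13* changed places. Among genes with a mean of at least 1, *Hoxa10* was higher than 31.3%, *Hoxa9* than 20.3%, *Hoxa11* than 20.0%, *Evx1* than 16.9% and *Hoxa13* than 14.2% of genes. With a minimum of 10 these shares were 20.7%, 7.92%, 7.61%, 4.08% and 0.98%, since fewer genes of low level remain. Of the Hox cluster genes with *Evx1* and *Evx2*, 30 of 40 had a mean of at least 10, beside 74.9% of all genes. A mean of at least 100 was reached by 2 of the 40, beside 57.6% of all genes. No paired analysis was possible because the values used are means over all libraries and no test was made, and for the same reason no replicate could be left out. Differences between groups and between replicates are outside these data as used, and depth limits *Hoxa13* most, with at least 128 reads over all libraries.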

Other observations

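The level of *Hoxa10* per kb relative to *Hoxa11* was 5.53 by spliced length and 1.44 by genomic span for the entry kept. Most of the excess of this entry over *Hoxa11* thus depends on the length chosen. The other entry of *Hoxa10* was at 21.5 per kb of transcript and 14.7 per kb of genomic span, above *Hoxa11* at 10.5 and 6.51. *Hoxa3* stood at 37.0 per kb of transcript and at 2.18 per kb of its genomic span of 44054 bp.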
